A study of Mus musculus with 6 samples.

Results

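The cytokines of the IL-6 family and the STAT3 feedback loop were examined in C2C12 cells, a line of mouse myoblasts, at rest and after cyclic stretch. The 9 genes were named by their place in the pathway, with no threshold on a measured value, as the ligands Il6, Lif, Il11 and Clcf1, the receptor chains Il6st, Lifr and Osmr, the transcription factor Stat3 and its feedback inhibitor Socs3. Each matched exactly 1 of the 22375 rows of the table. The CON group held 3 libraries from unstretched cells, and the 4H group held 3 libraries from cells stretched at 15% elongation for 4 h. All 6 libraries came from this 1 cell line on elastic plates, with no drug or gene change in either group, and the 4H libraries are named 4H replicates 1, 2 and 3 after the biosample numbers of the labels (titles 4H1, 4H3 and 4H4). The labels do not say whether the replicates were separate cultures, so p values measure the spread between these libraries, which may be technical. The study used the stretched cells as a model of mechanical load on the diaphragm, and the comparison asked which transcripts differed after 4 h of it.

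Cytokines of the IL-6 family share the receptor chain gp130, which Il6st encodes. IL-6 and IL-11 bind their own alpha receptors and then recruit gp130 chains, and LIF signals through gp130 joined to the LIF receptor. Cardiotrophin-like cytokine (CLCF1) uses the same chains as LIF together with an alpha receptor, which Cntfr encodes. Oncostatin M uses gp130 joined to the oncostatin M receptor (OSMR). The bound chains activate Janus kinases, which phosphorylate STAT3. STAT3 enters the nucleus and induces SOCS3, which binds gp130 and the kinases and shuts the signal down. In muscle, IL-6 and LIF are released by working fibers and by myoblasts and act on muscle precursor cells, and IL-11 is known from fibroblasts as a cytokine of fibrosis.

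The promoter windows of 3 ligands are shown first, because Lif and Il11 had the greatest ratios of mean FPKM among the members, Il6 gives the family its name, and all 3 windows held the same short motif. Each window runs from 250 bases before to 49 bases after an annotated start of transcription (RefSeq, GRCm38.p6), written 5′ to 3′ on the strand of the gene, with every motif match in capitals. RefSeq windows were found for 8 of the 9 genes, 10 windows in all, since Il11 and Lifr have 2 starts each. The ligand Clcf1 had no window, so its motifs are not known here. For Lif (chr11:4257318-4257617, plus strand), Il11 (chr7:4778092-4778391, minus strand) and Il6 (chr5:30012864-30013163, plus strand) the capitals mark a match to AP-1, TGANTCA, and in Il6 also to the CRE half-site, TGACG, on the other strand, to C/EBP, TTGNGCAA, and to NF-kB.

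Lif: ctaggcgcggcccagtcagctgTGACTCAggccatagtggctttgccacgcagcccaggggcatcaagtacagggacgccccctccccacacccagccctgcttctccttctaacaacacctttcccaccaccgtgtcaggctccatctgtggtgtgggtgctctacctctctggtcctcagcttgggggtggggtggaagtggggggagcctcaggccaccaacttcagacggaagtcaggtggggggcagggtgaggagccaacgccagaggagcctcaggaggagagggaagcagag

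Il11: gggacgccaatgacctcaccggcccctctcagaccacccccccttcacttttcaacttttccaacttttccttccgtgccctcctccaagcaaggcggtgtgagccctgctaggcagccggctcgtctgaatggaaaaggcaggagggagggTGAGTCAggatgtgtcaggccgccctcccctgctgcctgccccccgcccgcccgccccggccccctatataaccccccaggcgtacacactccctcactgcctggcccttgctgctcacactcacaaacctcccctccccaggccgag

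Il6: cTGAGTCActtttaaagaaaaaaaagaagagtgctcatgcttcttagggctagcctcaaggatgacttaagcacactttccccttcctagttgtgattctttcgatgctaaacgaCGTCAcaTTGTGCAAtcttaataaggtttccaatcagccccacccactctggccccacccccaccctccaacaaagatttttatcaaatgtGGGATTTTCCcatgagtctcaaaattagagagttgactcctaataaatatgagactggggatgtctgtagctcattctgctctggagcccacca

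Socs3 is shown as the feedback gene of STAT3 (chr11:117969317-117969616, minus strand), with its match to the STAT motif, TTCNNNGAA, in capitals.

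Socs3: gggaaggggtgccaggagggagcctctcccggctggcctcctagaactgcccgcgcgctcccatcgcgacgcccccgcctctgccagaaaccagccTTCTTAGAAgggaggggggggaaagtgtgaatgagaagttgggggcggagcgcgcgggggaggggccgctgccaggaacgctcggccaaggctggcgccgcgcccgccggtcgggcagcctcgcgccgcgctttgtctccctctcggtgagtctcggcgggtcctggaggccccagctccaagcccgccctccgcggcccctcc

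Counted from the start base as 0, the AP-1 match began at -228 in Lif, at -98 in Il11 and at -249 in Il6. Osmr also held 1, beginning at 3. Among all 32851 RefSeq windows of this length, 7.81% held an AP-1 match on either strand, 8.30% a STAT match, 20.8% a CRE half-site, 2.94% a C/EBP match and 4.51% an NF-kB match. A TEAD match, CATTCC, was in 14.7% of all windows and occurred at 2 places in that of Stat3. In Il6 the NF-kB match began at -44, and in Socs3 the STAT match began at -154. The windows of Il6st and Lifr and the upstream start of Il11 (chr7:4782808-4783107) held none of these letters, which says only that these letters are not in these windows. The CRE half-site and the C/EBP match of Il6 did not overlap. A match describes the sequence and is not a measured binding site, and no binding was measured in these samples.

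**Figure D1:**
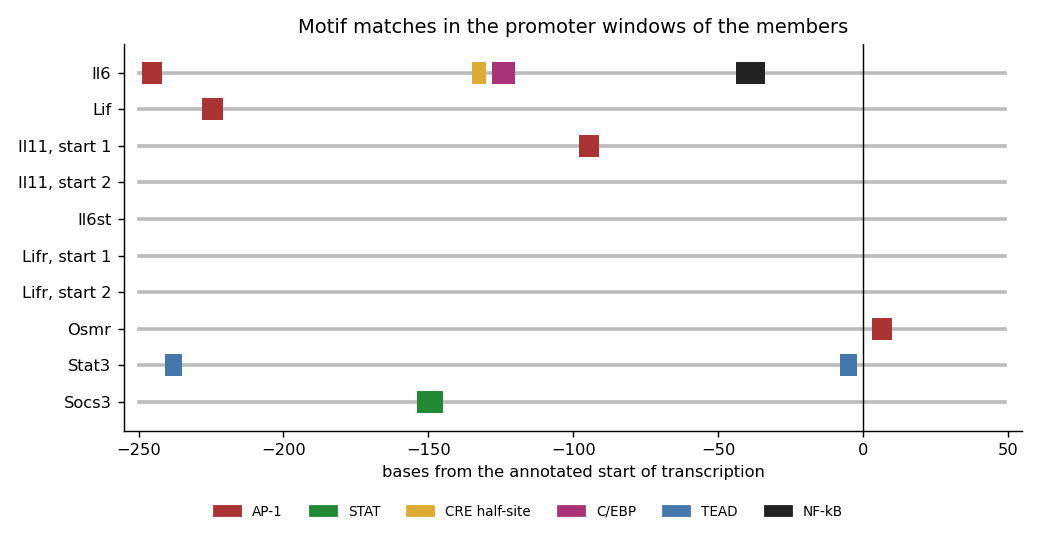
Motif matches in the promoter windows of 8 members, 1 line per annotated start, with the distance in bases from the start of transcription on the x axis and each coloured bar spanning 1 match on either strand. AP-1 matches lie in the windows of Il6, Lif, 1 start of Il11 and Osmr, and the only STAT match is in Socs3.

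On the GRCm38 assembly, GENCODE M21 places Lif on chromosome 11 (4257557 to 4272514), Il11 on chromosome 7 (4772373 to 4782859), Il6 on chromosome 5 (30013114 to 30019981) and Clcf1 on chromosome 19 (4214238 to 4223490). Il6st lies on chromosome 13 (112464070 to 112510086), Lifr and Osmr on chromosome 15 (7090614 to 7197489 and 6813577 to 6874969), and Stat3 and Socs3 on chromosome 11 (100885098 to 100939540 and 117966079 to 117970047). Clcf1 shares exon sequence with 1 annotated gene on its strand, AC109138.7, which was at 8.55 FPKM in CON replicate 2 and listed at 0 in the other libraries. Stat3 shares exon sequence with Stat5a on the opposite strand. The libraries marked the strand, but no source states whether counting used it, so reads of AC109138.7 and Stat5a could enter the values of Clcf1 and Stat3.

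FPKM, the deposited value, scales sequenced fragments to transcript length and to library depth, so levels of different genes can be compared. Limma tested log2(FPKM + 0.5) in 11593 genes whose mean reached 0.5 FPKM. A gene was called differentially expressed where its log2 fold change was 1 or more in either direction and its adjusted p was 0.05 or less, the limits that the study used. At both limits 3.88% of all genes tested were called. At the adjusted p alone 22.6% were higher and 24.1% lower in the 4H group, and the libraries of the groups did not overlap in 56.7%. The size of a single fragment, read from the steps between low values, put the depth at about 16800000 to 17100000 fragments per library. Of 8 myoblast markers, 7 reached 1 FPKM in some library, and their summed level was 1965 to 2039 FPKM in CON and 2937 to 3168 FPKM in 4H, most of it Vim. Its members differed in direction, as Myod1 rose by 1.74 on the log2 scale (limma adjusted p = 1.56e-06) and Myf5 fell by 0.67 (adjusted p = 0.000347). The leukocyte markers Ptprc and Adgre1 were listed at 0 in all libraries. The sum of all 8 leukocyte markers was 17.1 to 20.4 FPKM in CON and 32.3 to 36.0 FPKM in 4H, nearly all from Cd14 and Cd68. Cd68 rose by 1.07 on the log2 scale (limma adjusted p = 4.11e-05), from 7.57 ± 0.89 to 16.4 ± 1.29 FPKM (SD, n = 3 each), and Cd14 rose by 0.51 (adjusted p = 0.000985). Csf1r, a receptor of macrophages, was listed at 0, 0 and 0.0272 FPKM in CON and at 1.48, 0.966 and 0.792 FPKM in 4H, and passed the filter on low values only through its 4H libraries, so that it had to differ. The 4 endothelial markers summed to 0.101 to 0.122 FPKM in CON and 0.254 to 0.387 FPKM in 4H, and the 6 markers of differentiated muscle to 1.80 to 2.40 and 3.09 to 3.74 FPKM, both low and without overlap. The part of these markers in the cytokine results was not tested. In bulk RNA a change in the share of cells that express a gene and a change in the RNA per cell cannot be told apart.

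Of the 9 genes, all of which passed the filter, 2 were differentially expressed at both limits, Lif and Clcf1, against 3.88% of all genes. At the adjusted p alone, 4 were higher (Lif, Clcf1, Il11 and Stat3) against 22.6% of all genes, and 2 were lower (Il6st and Osmr) against 24.1%. The groups did not overlap in 8 of the 9, against 56.7%, with Il6 as the exception. The median log2 fold change was 0.26 over the 9 genes and -0.01 over all genes tested. Il6 and Il11 had CON means under 0.5 FPKM and passed the filter only through their 4H levels, so these counts describe the genes and do not support a statement on the group as a whole.

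Clcf1, the cardiotrophin-like cytokine that acts through the LIF receptor, was by far the most abundant of these ligands. In CON it stood at 18.8, 19.4 and 19.0 FPKM and in 4H at 38.2, 39.4 and 43.3 FPKM. All 4H libraries lay well above all CON libraries. The mean rose from 19.1 ± 0.29 to 40.3 ± 2.69 FPKM (SD, n = 3 each), or by 1.06 on the log2 scale (SE 0.05, limma adjusted p = 1.91e-06). Clcf1 was the highest of the 9 genes in the 4H group and the second in the CON group, where Il6st was higher.

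Lif, the leukemia inhibitory factor, was at 0.803, 0.952 and 0.949 FPKM in CON and at 2.45, 3.10 and 2.70 FPKM in 4H. The lowest 4H library was above 2.4 FPKM and no CON library reached 1. Its mean rose from 0.902 ± 0.09 to 2.75 ± 0.33 FPKM (SD, n = 3 each), a ratio of means of 3.05, or 1.21 on the log2 scale (SE 0.12, limma adjusted p = 7.98e-05). Il11, the cytokine studied in fibrosis, was at 0.264, 0.315 and 0.298 FPKM in CON and at 0.954, 0.809 and 1.16 FPKM in 4H. The groups were again apart, at levels near 1 FPKM or below. Il11 rose by 0.89 on the log2(FPKM + 0.5) scale (SE 0.14, limma adjusted p = 0.00135), which stays under the limit of 1, while the ratio of its mean FPKM was 3.34 (0.292 ± 0.03 and 0.975 ± 0.18 FPKM, SD, n = 3 each). The pseudocount of 0.5 understates the change of such a low gene, and Il11 met both limits with a pseudocount of 0.1 (log2 fold change 1.44) and with values rescaled to TPM (1.28), whereas Lif missed the limit of 1 with a pseudocount of 1 (0.98).

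Il6 itself did not separate. This cytokine, which contracting muscle releases, was at 0.316, 0.552 and 0.322 FPKM in CON and at 0.396, 1.14 and 0.901 FPKM in 4H. The groups overlapped, since 4H replicate 1 lay below CON replicate 2, and the other 4H libraries were higher than all CON libraries. The ratio of means was 2.04 and the log2 fold change of 0.51 (95% interval -0.04 to 1.06) did not pass (limma adjusted p = 0.113). It passed without 4H replicate 1 (0.77, adjusted p = 0.0145), and the adjusted p ranged from 0.0145 to 0.309 over the alternatives. Few fragments stood behind these values. With the longest coding transcript of each gene, the implied numbers were 13, 22 and 13 fragments for Il6 in CON and 16, 45 and 36 in 4H. Il11 had 9, 10 and 10 in CON against 31, 27 and 38 in 4H, and Lif 55 to 66 against 166 to 211, so the limits of counting weigh most on Il6 and Il11. A shorter transcript would lower these numbers. Each other member had at least 331 implied fragments in every library.

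**Figure D2:**
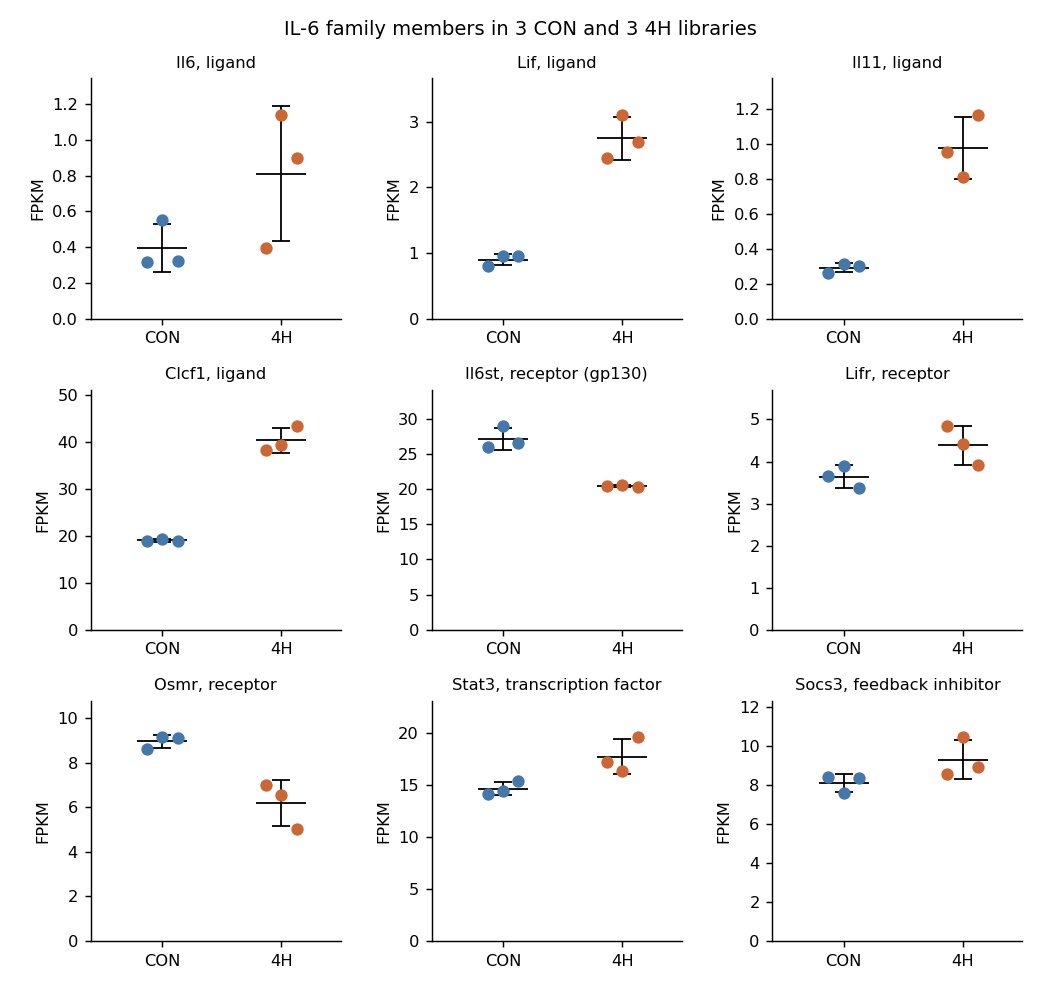
FPKM of the 9 members in each library (points, 3 CON and 3 4H) with the group mean and SD (black), each panel on its own linear axis from 0. Lif, Il11 and Clcf1 are well above CON in every 4H library, Il6st and Osmr are below, and Il6 shows 1 4H library, at 0.396 FPKM, among the CON values.

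Among the receptor chains Il6st and Osmr fell and Lifr did not pass. Il6st, which encodes the shared signal chain gp130, was at 26.0, 28.9 and 26.5 FPKM in CON and at 20.4, 20.6 and 20.3 FPKM in 4H. The 4H libraries were nearly identical and all below the CON libraries. Il6st fell by 0.40 on the log2 scale (SE 0.05, limma adjusted p = 0.000293), from 27.1 ± 1.55 to 20.5 ± 0.14 FPKM (SD, n = 3 each). Osmr, the partner of gp130 for oncostatin M, was at 8.63, 9.14 and 9.12 FPKM in CON and at 7.01, 6.56 and 5.02 FPKM in 4H. It was lower in every 4H library, with 4H replicate 3 lowest, and fell by 0.51 on the log2 scale (SE 0.11, limma adjusted p = 0.00634). Without 4H replicate 3 it fell by 0.38 (adjusted p = 0.00481), and the adjusted p reached 0.0241 at most over the alternatives. Lifr, the partner chain for LIF and CLCF1, was at 3.65, 3.90 and 3.38 FPKM in CON and at 4.84, 4.42 and 3.91 FPKM in 4H. The groups touched without overlap, as 4H replicate 3 was 3.907 and CON replicate 2 was 3.901 FPKM. Its log2 fold change of 0.24 (95% interval 0.01 to 0.46) did not pass after adjustment (limma adjusted p = 0.0777), and passed in 1 of 16 alternatives, without 4H replicate 3 (0.31, adjusted p = 0.0401). Without 4H replicate 1 it was 0.17 (adjusted p = 0.222), the other end of the range.

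The balance between the receptor chains was read as a ratio of FPKM within each library, so that any factor common to a library drops out. Lifr to Il6st was 0.140, 0.135 and 0.127 in CON and 0.237, 0.214 and 0.192 in 4H. Every 4H library held more Lifr per Il6st, 0.134 ± 0.01 against 0.214 ± 0.02 (SD, n = 3 each). Il6ra to Il6st, a ratio chosen after the values were seen, was also higher in every 4H library, at 0.103 ± 0.003 in CON and 0.144 ± 0.007 in 4H. Il6st itself was lower in every 4H library, so a gene without change is higher per Il6st, and both ratios in part restate that fall. Il6ra alone overlapped between the groups (log2 fold change 0.07), and Lifr alone did not pass. Osmr to Il6st was 0.331 ± 0.01 in CON and 0.303 ± 0.05 in 4H, and the groups overlapped. The change of 1 member against another was tested over 10 pairs, with a two-sided exact permutation test that cannot give a p below 0.1 for 3 against 3. The difference in log2 ratio between the groups was -0.63 for Il6st against Lifr and 0.75 for Lifr against Osmr, without overlap (exact p = 0.1 each, 0.167 adjusted over the pairs). For Il6st against Osmr it was 0.11, with overlap (exact p = 0.7).

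Among the ligands the differences depended on the pseudocount. On the log2(FPKM + 0.5) scale the difference was -0.17 for Il11 against Clcf1 and 0.32 for Lif against Il11, both without overlap (exact p = 0.1 each, 0.167 adjusted over the 10 pairs). With no pseudocount, an alternative chosen after seeing the data, both turned. Il11 per Clcf1 was then higher in every 4H library, at 0.014 to 0.0162 in CON and 0.0205 to 0.0268 in 4H (log2 difference 0.65, exact p = 0.1), and Lif per Il11 overlapped, at 3.03 to 3.18 in CON and 2.32 to 3.84 in 4H (-0.12, exact p = 0.7). Lif per Clcf1 was also higher in every 4H library with no pseudocount (0.53, exact p = 0.1), but overlapped with it (0.15, exact p = 0.3). Il6 against Lif (-0.70) and against Clcf1 (-0.54) did not overlap with the pseudocount (exact p = 0.1 each) and overlapped without it (-0.66 and -0.13, exact p = 0.2 and 1.0). Il6 against Il11 overlapped either way (-0.38 and -0.78, exact p = 0.3 each). No order of response among the ligands is therefore given. The differences between the receptor chains kept their sign and their overlap or separation with no pseudocount.

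**Figure D3:**
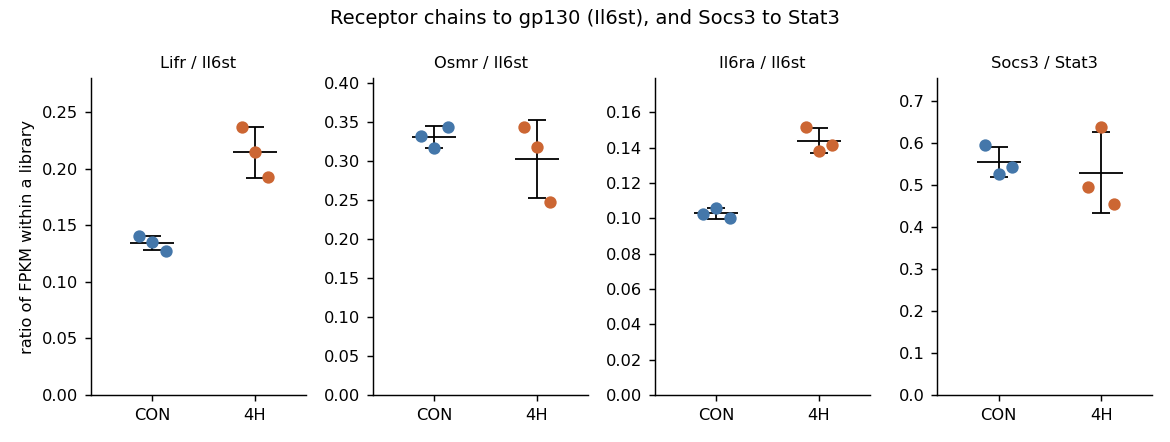
Ratios of FPKM within each library (points), with the mean and SD of 3 CON and 3 4H libraries, on linear axes from 0. Lifr and Il6ra per Il6st are higher in every 4H library, where Il6st itself is lower, and Osmr per Il6st and Socs3 per Stat3 overlap between the groups.

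Stat3, the transcription factor that the receptors activate, was at 14.2, 14.4 and 15.4 FPKM in CON and at 17.3, 16.3 and 19.6 FPKM in 4H. All 4H libraries were higher, by a small margin, and the mean rose from 14.7 ± 0.63 to 17.7 ± 1.69 FPKM (SD, n = 3 each), or by 0.26 on the log2 scale (SE 0.07, limma adjusted p = 0.0168). Without CON replicate 1 it no longer passed (0.24, adjusted p = 0.0558), and the adjusted p ranged from 0.0101 to 0.0558. Socs3, the feedback inhibitor that STAT3 induces, was at 8.41, 7.57 and 8.33 FPKM in CON and at 8.53, 10.4 and 8.91 FPKM in 4H. The 4H libraries lay above the CON libraries, the nearest of them by little more than 0.1 FPKM. The log2 fold change of 0.18 (95% interval -0.01 to 0.38) did not pass (limma adjusted p = 0.112, and 0.0671 to 0.316 over the alternatives). Without 4H replicate 2, the highest library, it was 0.10 (adjusted p = 0.316). Socs3 per Stat3 was 0.553 ± 0.04 in CON and 0.529 ± 0.10 in 4H (SD, n = 3 each), with overlap, and the difference between their log2 changes was -0.08 (exact permutation p = 0.7).

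The order of the levels differed between the groups in 3 places. In CON it ran from Il6st at 27.1 FPKM through Clcf1, Stat3, Osmr, Socs3, Lifr, Lif and Il6 to Il11 at 0.292 FPKM, and no neighbours in this order overlapped between their libraries. In 4H Clcf1 stood above Il6st, Socs3 above Osmr, and Il11 above Il6, and the last of these pairs overlapped.

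Other ligands of the family were low. Ctf1, cardiotrophin 1, was at 1.57 ± 0.12 and 1.38 ± 0.09 FPKM (limma adjusted p = 0.317). Cntf, the ciliary neurotrophic factor, was listed between 0 and 2.01 FPKM with wide overlap (adjusted p = 0.658). Osm, which encodes oncostatin M, and Ebi3 were listed at 0 in all 6 libraries, and Ctf2, Il27 and Il31 stayed under 0.2 FPKM and were not tested.

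Among the other receptors, Il6ra, the alpha chain that binds IL-6, was at 2.67, 3.06 and 2.65 FPKM in CON and at 3.10, 2.85 and 2.88 FPKM in 4H, with overlap (log2 fold change 0.07, limma adjusted p = 0.588). Il11ra1, the alpha chain for IL-11, was at 3.77, 3.92 and 3.09 FPKM in CON and at 3.17, 2.25 and 2.24 FPKM in 4H. It fell by 0.43 on the log2 scale (SE 0.14, limma adjusted p = 0.0357), although its groups overlapped. Mouse carries a near-identical copy of Il11ra1, between which reads could be split, so its value is uncertain. Il27ra was at 1.64 ± 0.04 and 1.79 ± 0.24 FPKM (adjusted p = 0.535). Cntfr, the alpha chain for CLCF1, and Il31ra were under 0.3 FPKM in all libraries and were not tested. With the 3 receptor chains above, 3 of the 6 tested receptors of the family passed an adjusted p of 0.05, all lower in 4H, against 24.1% of all genes lower and 22.6% higher. Adam17, a protease that sheds the IL-6 receptor, fell by 0.21 (adjusted p = 0.00175), and Adam10 was at 32.3 ± 1.63 and 30.3 ± 2.47 FPKM (adjusted p = 0.256).

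Signal proteins below the receptors were mixed. Jak2, a kinase bound to gp130, rose from 12.2 ± 0.55 to 19.2 ± 1.44 FPKM (SD, n = 3 each), or by 0.63 on the log2 scale (SE 0.07, limma adjusted p = 0.000118), while Jak1, at 44.3 ± 1.55 and 44.7 ± 1.52 FPKM, did not pass (adjusted p = 0.796). Of the 4 Janus kinases tested, 1 rose, against 22.6% of all genes, and 3 did not pass. Of the 5 STAT genes tested, Stat3 rose, against 22.6% of all genes, and 4 did not pass. Stat2, at 19.6 ± 1.95 and 16.1 ± 2.60 FPKM, overlapped between the groups (limma adjusted p = 0.0699).

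Of 15 inhibitors of the pathway tested, 6 rose, against 22.6% of all genes, 3 fell, against 24.1%, and 6 did not pass, Socs3 among the last. Their median log2 fold change was 0.10, and that of all genes -0.01. Of the SOCS genes that were tested, Socs5 changed most on the log2 scale, at 20.1, 20.0 and 20.2 FPKM in CON and 35.0, 33.1 and 35.3 FPKM in 4H. It rose by 0.76 on the log2 scale (SE 0.04, limma adjusted p = 2.70e-06). Cish, a further gene of the SOCS family, was under the filter and not tested, at 0.371, 0.201 and 0.343 FPKM in CON and at 0.626, 0.556 and 0.684 FPKM in 4H, without overlap and with a ratio of means of 2.04. Socs1, an inhibitor of Janus kinases, rose by 0.55 (adjusted p = 0.0110), from 2.07 ± 0.46 to 3.23 ± 0.22 FPKM, and Socs2 by 0.28 (adjusted p = 0.00605). Pias3, which binds STAT3 and blocks it, rose by 0.45 (adjusted p = 0.000375), and Pias2 by 0.28 (adjusted p = 0.00321). Ptpn11, the phosphatase SHP2 that docks on gp130, fell by 0.12 (adjusted p = 0.0301). The others that fell were Pias4 by 0.29 (limma adjusted p = 0.00427) and Ptpn2 by 0.19 (adjusted p = 0.0188). Socs4 and Socs7 were lower without overlap but did not pass (limma adjusted p = 0.134 and 0.153).

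Genes known as STAT3 targets did not move in 1 direction. Of the 19 tested that are not members, 8 rose, against 22.6% of all genes, 3 fell, against 24.1%, and 8 did not pass at the adjusted p alone. The median log2 fold change was 0.05, and that of all genes -0.01. At both limits 3 were called, all higher in 4H. Ier3, an immediate early gene of cell survival, was at 102.0, 86.7 and 96.3 FPKM in CON and at 270.9, 294.9 and 302.4 FPKM in 4H, and rose by 1.60 on the log2 scale (SE 0.06, limma adjusted p = 6.56e-07). Il4ra, the receptor chain for IL-4, rose by 1.29 (adjusted p = 1.46e-06), from 9.05 ± 0.54 to 22.8 ± 1.09 FPKM, and Timp1, an inhibitor of metalloproteinases, rose by 1.15 (adjusted p = 2.09e-07), from 123.2 ± 4.07 to 273.8 ± 9.26 FPKM. Whether STAT3 took part in any change of this list, up or down, was not tested. Ccnd1, cyclin D1, rose by 0.52 (adjusted p = 2.73e-06) and Hif1a by 0.38 (adjusted p = 5.25e-05). The others that rose were Bcl2l1 by 0.50 (limma adjusted p = 0.000367), Zfp36 by 0.36 (adjusted p = 0.0240) and Junb by 0.34 (adjusted p = 0.000342). Cebpb, by contrast, fell by 0.80 (adjusted p = 3.71e-05), from 42.6 ± 3.21 to 24.3 ± 1.71 FPKM. Myc fell by 0.48 (adjusted p = 2.03e-05) and Tnfrsf1a by 0.27 (adjusted p = 0.00174). Bcl3 and Pim1, often read as direct targets of STAT3, were at 0.808 ± 0.09 and 8.67 ± 0.74 FPKM in CON and at 0.489 ± 0.17 and 8.15 ± 0.06 FPKM in 4H (adjusted p = 0.0753 and 0.385). Lcn2, Lrg1 and Hp, acute phase genes, were listed at 0 in all libraries. Over all 49 tested genes of the pathway other than the 9 members, 15 were higher at the adjusted p alone, against 22.6% of all genes, 9 were lower, against 24.1%, and 3 met both limits, against 3.88%.

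**Figure D4:**
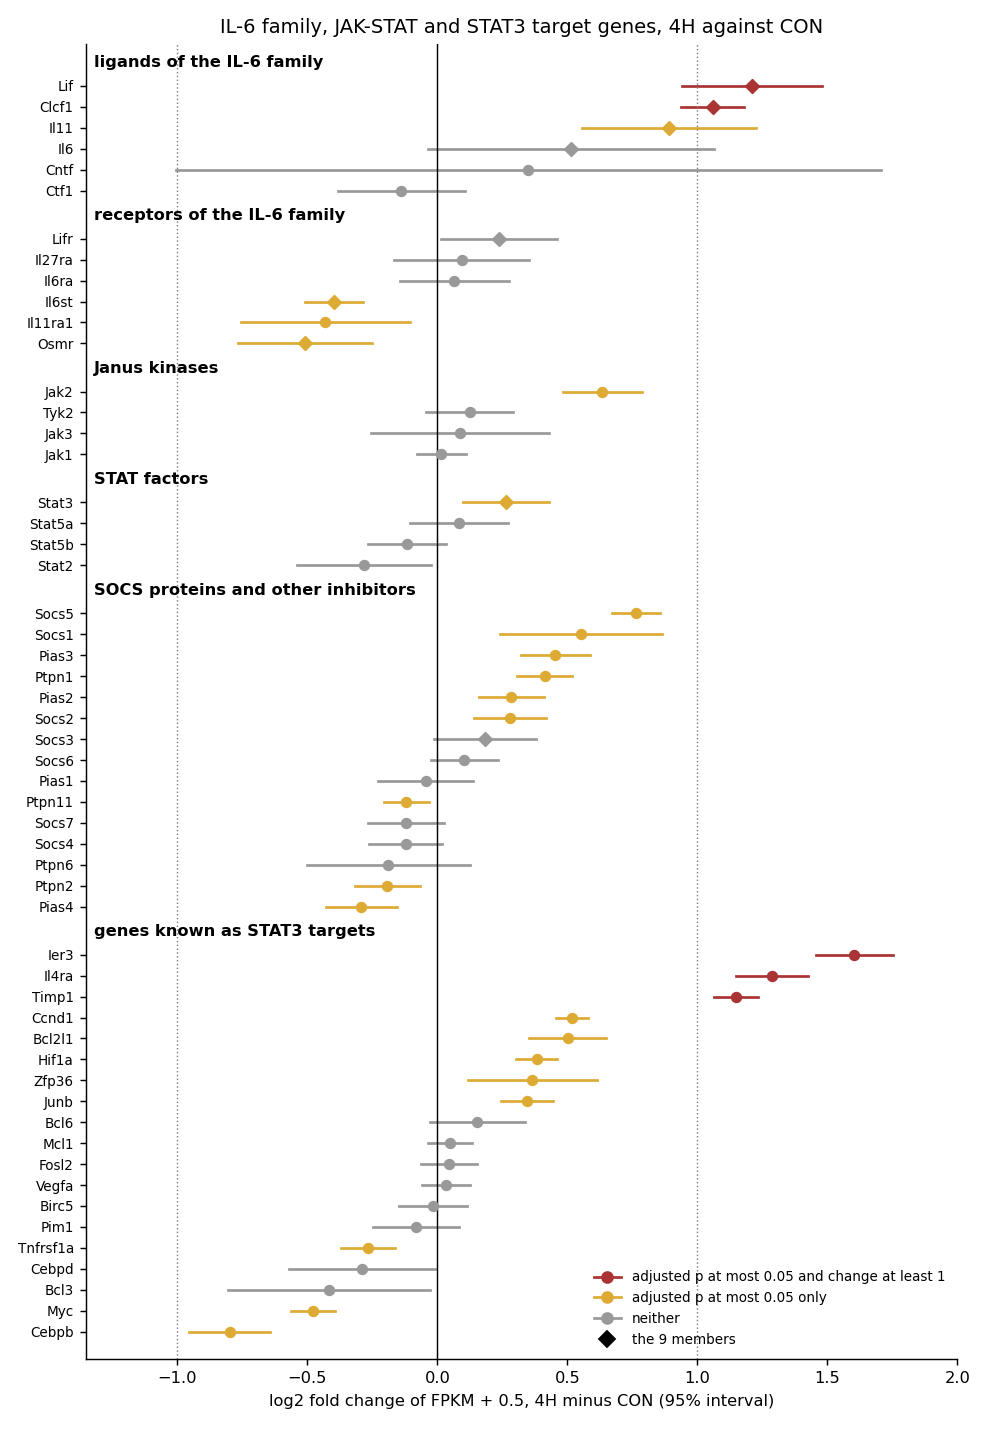
Log2 fold change of FPKM + 0.5, 4H minus CON, with its 95% interval from limma for the tested genes of the pathway that are reported here, grouped by role, where diamonds mark the members and dotted lines a change of 1 in either direction. Lif and Clcf1 stand at the top of the ligands with 1.21 and 1.06, Osmr and Il6st lie at -0.51 and -0.40, and the STAT3 targets spread from 1.60 for Ier3 to -0.80 for Cebpb.

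Of the 8617 genes whose mean reached 5 FPKM, the pattern of log2(FPKM + 0.5) over the 6 libraries was most like that of Clcf1 in Cd82 (Pearson r = 0.9994), of Lif in Ctxnd1 (0.999) and of Il11 in Ddr1 (0.999). Such likeness was common, since 1069, 1019 and 859 genes reached an r of 0.95 with Clcf1, Lif and Il11. For Il6 only 12 genes reached it, with Gpr137 the nearest (0.9873). The libraries are shared by all these genes, and the values are a description.

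Across the alternatives the direction of every member held. The log2 fold change of Clcf1 stayed between 1.01 and 1.11, that of Lif between 0.98 and 1.61, that of Il11 between 0.61 and 1.74 and that of Il6 between 0.34 and 1.03, where the high ends for Lif, Il11 and Il6 are ratios of mean FPKM with no pseudocount. Il6st stayed between -0.43 and -0.35 and Osmr between -0.60 and -0.38.

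**Figure D5:**
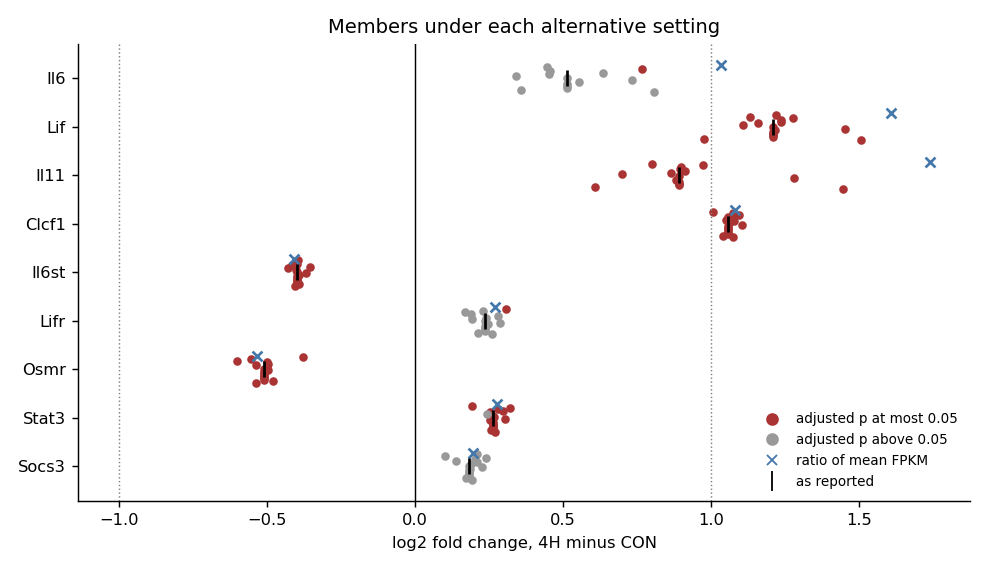
Log2 fold change of each member, 4H minus CON, under every alternative setting (points), with red for an adjusted p of at most 0.05, grey for one above it, a cross for the ratio of mean FPKM and a black bar for the value as reported. Il11, Il6 and Lif spread widely, from 0.61 to 1.74, from 0.34 to 1.03 and from 0.98 to 1.61, whereas Clcf1 stays between 1.01 and 1.11, and no member crosses 0.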

How the data were processed

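RNA-seq of C2C12 myoblasts was taken from 3 CON and 3 4H libraries (poly(A) RNA, strand-specific, paired ends). What the authors deposited is FPKM, scaled by them to transcript length and mapped fragments, with 1 column per library in 1 table. Which aligner, counter and gene models were used is not given in these sources. The submitters' processing notes name mm10. Coordinates come from GENCODE M21 (GRCm38), which holds 22017 of the 22375 identifiers, and sequences from RefSeq (GRCm38.p6). Limma 3.58.1 in R 4.3.3 (lmFit, eBayes with a trend, two-sided, Benjamini-Hochberg adjustment) was fitted on log2(FPKM + 0.5) for all genes whose mean reached 0.5 FPKM. The fit was first tested on simulated data. The size of 1 fragment was the densest window of FPKM times length over 4440 genes with 1 annotated transcript, 48 to 65 genes against a median of 4 to 5 per window, and came to 0.0585 to 0.0594. Counts implied by it are estimates without intervals. Ratios and exact permutation tests used Python 3.11.15, SciPy 1.17.1 and pandas 2.3.3, and plots matplotlib 3.10.9.

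The members and gene lists were chosen with earlier results of these data known. The text names all members, genes of the lists that met both limits, the 2 others of each list with the highest mean, every ligand and receptor above 0, and the gene most like each ligand, apart from a few genes that are not reported here but stay in the counts. Socs1, Socs2, Socs4, Socs5, Socs7, Cish, Pias3, Pias4, Ptpn2, Bcl2l1, Zfp36, Junb, Cebpb, Myc, Tnfrsf1a, Bcl3, Pim1, Lcn2, Lrg1, Hp, Cd68, Csf1r, Myod1, Myf5 and the motifs were chosen after values or sequences were seen. The 18 alternatives were other pseudocounts, filters, scalings and limma settings, a replicate block, the ratio of means, and each library left out.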

Additional observations from a re-analysis of the deposited data

How the results depend on the processing

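Of 146 tested values of single members under the alternatives, 143 kept their direction and their side of an adjusted p of 0.05, 2 passed it newly (Il6 without 4H replicate 1, Lifr without 4H replicate 3) and 1 lost it (Stat3 without CON replicate 1). Members at both limits numbered 3 in place of 2 with a pseudocount of 0.1, with TPM and with the ratio of mean FPKM, where Il11 met them too. They numbered 1 with a pseudocount of 1, where Lif was at 0.98, and 1 where the filter was raised to 5 FPKM, which removes Lif. That filter also left 2 members in place of 4 higher at the adjusted p alone, since Lif and Il11 were not tested. Il6 could not be tested without 4H replicate 2, nor with filters at a mean of 1 or 5 FPKM. With no pseudocount, chosen after seeing the data, the difference in response turned for Lif against Il11 (-0.1215 in place of 0.32) and for Il11 against Clcf1 (0.6493 in place of -0.17), and the other 8 pairs kept their sign.

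Same-numbered libraries of the groups did not deviate together (Pearson r of 0.02, -0.09 and -0.13 over 11593 genes). These values cannot tell whether same-numbered libraries were prepared together, which the labels do not say. With the replicate block, 2 members met both limits, as without it. FPKM limits what can be said of Il6 and Il11, whose values rest on few fragments.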
